A study of Mus musculus with 16 samples.

Results

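The genes described here are the FGF receptors Fgfr1, Fgfr2, Fgfr3 and Fgfr4 and the ERK feedback genes Spry1, Spry2, Spry4, Dusp6, Etv4 and Etv5. They were taken by gene symbol from the deposited matrix, in which they make up 10 of 24238 genes and 17 of 33701 RefSeq transcripts. The RNA came from embryoid bodies (EBs), aggregates in which mouse embryonic stem cells start to differentiate, made from the R1 line without Lif. Day 0 is the day on which retinoic acid (RA) was added, when the EBs were already 4 days old. EBs at day 0 had received no RA yet, and EBs at day 4 had been kept in 2 μM RA for 4 further days. The day 4 EBs are therefore also older, and without untreated EBs of that age the effect of RA and that of time in culture cannot be told apart. Each day had 2 biological replicates. The RNA of each of these 4 samples was split over 4 vials with different spike-in mixes (mix 4 held no in vitro transcribed spike-ins), giving 16 libraries. Every vial also received standard RNA controls (ERCC): ERCC mix 1 in the vials of mixes 1 and 3, and ERCC mix 2 in those of mixes 2 and 4. Vials are splits of 1 RNA and not replicates, so n = 2 per day throughout.

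Fibroblast growth factors (FGFs) bind receptor tyrosine kinases on the cell surface together with heparan sulfate. The receptors act through adaptors, Ras and the kinases Raf, Mek and Erk. Active ERK induces the transcription factors Etv4 and Etv5 as well as its own inhibitors: Sprouty proteins act upstream on the cascade, and the phosphatase Dusp6 removes the activating phosphates from ERK. Transcripts of these genes are widely used as a readout of FGF signalling in the early embryo, where FGF/ERK activity is needed for stem cells to leave pluripotency. Transcript levels alone do not measure the activity of the pathway.

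The ERK feedback genes were lower at day 4 than at day 0, with Spry1 as the exception. Etv4 was 14.6 times lower, Spry4 10.8 times, Etv5 7.41 times, Spry2 2.88 times and Dusp6 2.12 times. Among the receptors, mean Fgfr1 was 2.56 times lower and mean Fgfr2 1.60 times higher, Fgfr3 and Fgfr4 were near the bottom of the range at both days, and Spry1 was 1.67 times higher. With limma on log2(FPKM + 0.1) and Benjamini-Hochberg adjustment over 20553 genes, 6 of the 10 genes passed an adjusted p of 0.05, all of them lower at day 4 (Fgfr4, Spry2, Spry4, Dusp6, Etv4 and Etv5). Fgfr1, Fgfr2, Fgfr3 and Spry1 did not pass. With the replicate number as a block in the fit, Fgfr1, Fgfr2 and Spry1 passed too (limma adjusted p of 0.00318, 0.0318 and 0.0278). With that block 10583 of the 20553 genes passed. Many genes changed between the days: in the fit without the block 30.4% of all genes tested were called, 14.5% lower and 16% higher. The median log2 change was -1.17 for the 10 genes and -0.03 for all genes tested. After a correction for the GC content of the transcripts the median of the 10 genes was -0.68. Of them 3 were then called higher (Fgfr2, Fgfr3 and Spry1) and 5 lower (Spry2, Spry4, Dusp6, Etv4 and Etv5), and 10629 of all genes were called. FPKM are fragments counted per length of the transcript and per number of mapped fragments. The number of fragments behind a value is unknown here, so no counting error is given.

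The vials of 1 RNA sample did not all agree. In day 0 replicate 2 the mix 3 and mix 4 vials correlated with the mix 1 and mix 2 vials with r of 0.831 to 0.906 across 11605 genes, whereas all other pairs of vials of an RNA sample had r of 0.986 to 0.994. The difference followed the GC content of the transcript. The median log2 difference between these vials (mix 3 and 4 minus mix 1 and 2) was 0.97 for genes below 40% GC, 0.01 at 45 to 50% and -2.51 at 60% and above. The change from day 0 to day 4 followed GC content too. Its median went from 0.72 below 40% GC over 0.09 at 45 to 50% to -1.71 at 60% and above, and from 0.98 to -2.10 without the mix 3 and mix 4 vials of day 0 replicate 2. Among the 10 genes GC content was 58.8% for Etv4 and Fgfr4, between 51.2% and 56.3% for Fgfr1, Fgfr2, Fgfr3, Spry1, Spry4 and Etv5, 49.0% for Dusp6 and 46.2% for Spry2. The part of GC content in the differences between the days was not tested beyond the values given without these vials and after a GC correction.

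**Figure D1:**
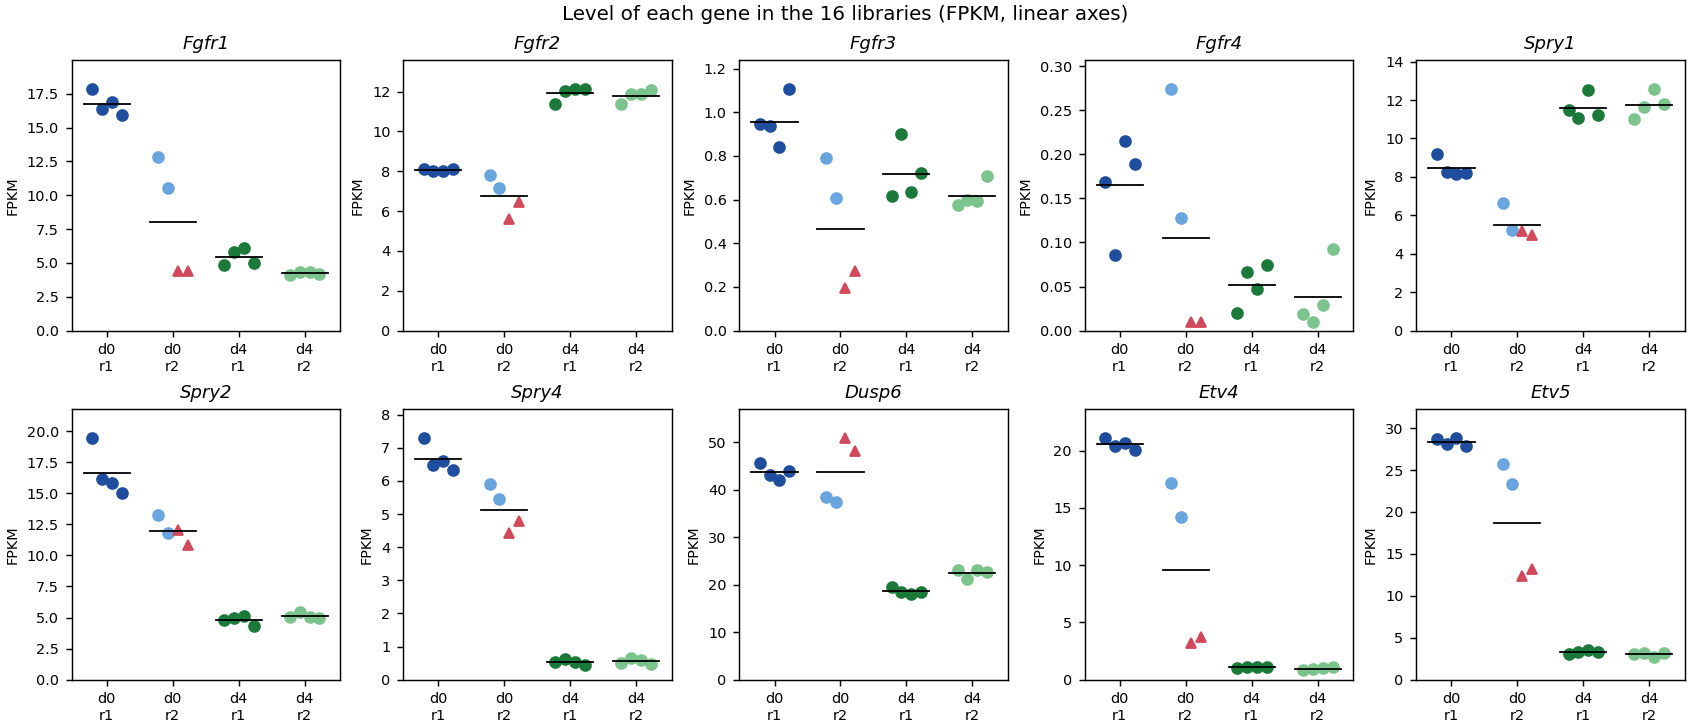
FPKM of each gene in the 16 libraries, by day (d0, d4) and replicate (r1, r2), with mixes 1 to 4 from left to right and a bar at the mean of the 4 vials. Red triangles are the mix 3 and mix 4 vials of day 0 replicate 2, which lay below the mix 1 and mix 2 vials for Etv4, Etv5 and Fgfr1 and above them for Dusp6.

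Fgfr1 encodes the receptor that embryonic stem cells and the epiblast mainly use. The gene spans bases 25518759 to 25575718 of chromosome 8 (GRCm38, mm10). In day 0 replicate 1 it was measured at 17.8, 16.4, 16.9 and 15.9 FPKM in mixes 1 to 4. In day 0 replicate 2 the mix 1 and mix 2 vials gave 12.8 and 10.5 FPKM, and the mix 3 and mix 4 vials 4.39 and 4.44 FPKM. The day 4 libraries lay between 4.81 and 6.13 FPKM in replicate 1 and between 4.13 and 4.35 FPKM in replicate 2. The mix 3 and mix 4 vials of day 0 replicate 2 thus fell within the range of day 4, and the remaining 6 libraries of day 0 lay above it. On the mean of the 4 vials the log2 change was -1.26 (SE 0.43, limma adjusted p = 0.0979). It was -1.52 (adjusted p = 0.00704) without these vials, where 12545 of 20440 genes were called, and -0.24 (adjusted p = 0.0864) after the GC correction.

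Fgfr2 lies on chromosome 7 from 130162451 to 130266808. It is the receptor of the primitive endoderm and, with its alternative exons, of many epithelia and mesenchymes. It was the most abundant of the 4 receptors at day 4. Its day 0 values were 8.12, 8.02, 7.997 and 8.12 FPKM in replicate 1 and 7.83, 7.16, 5.59 and 6.46 FPKM in replicate 2. The day 4 values were 11.4, 12.0, 12.1 and 12.1 FPKM in replicate 1 and 11.4, 11.9, 11.9 and 12.1 FPKM in replicate 2. All 8 libraries of day 4 lay above all 8 of day 0, a separation found for 34.3% of all genes tested. The log2 change of 0.68 (SE 0.18, limma adjusted p = 0.0578) missed the threshold, with a 95% interval from 0.18 to 1.17. It was 0.60 (adjusted p = 0.00726) without the mix 3 and mix 4 vials of day 0 replicate 2 and 1.15 (adjusted p = 0.0178) after the GC correction, and passed in both. So did many other genes: 12545 of 20440 were called without these vials and 10629 of 20553 after the GC correction.

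Fgfr3 (chromosome 5, 33721724 to 33737068) and Fgfr4 (chromosome 13, 55152818 to 55168759) are receptors of cartilage and of the liver, among other tissues. Fgfr3 lay between 0.197 and 1.11 FPKM at day 0, with a median of 0.815, and between 0.573 and 0.901 FPKM at day 4, with a median of 0.626. The lowest values at day 0 were those of the mix 3 and mix 4 vials of replicate 2, and the days overlapped. The log2 change was -0.01 (SE 0.40, limma adjusted p = 0.982), 0.83 (adjusted p = 0.0117) after the GC correction and -0.26 (adjusted p = 0.360) without these vials, so its sign depended on the processing. Fgfr4 did not exceed 0.274 FPKM in any library. It was at 0.010 FPKM in both of these vials of day 0 replicate 2 and between 0.086 and 0.274 FPKM in the other 6 day 0 libraries, and at day 4 it lay between 0.010 and 0.093 FPKM. Its log2 change of -0.69 (SE 0.17, limma adjusted p = 0.0497) passed the threshold narrowly. It was -0.96 (adjusted p = 0.0040) without these vials and 0.03 (adjusted p = 0.739) after the GC correction. At these levels the offset of 0.1 FPKM is larger than most of the values, and the change on this scale understates the ratio of the means, 3.01.

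The Sprouty genes encode membrane-associated inhibitors of receptor tyrosine kinase signalling. Spry4 was measured at 7.29, 6.48, 6.59 and 6.33 FPKM in day 0 replicate 1 and at 5.90, 5.45, 4.43 and 4.78 FPKM in day 0 replicate 2. In day 4 EBs it was down to 0.539, 0.614, 0.522 and 0.455 FPKM in replicate 1 and 0.505, 0.666, 0.593 and 0.486 FPKM in replicate 2. Each day 4 library was thus below each day 0 library, and the mix 3 and mix 4 vials of day 0 replicate 2 were the lowest of that day. The log2 change was -3.20 (SE 0.26, limma adjusted p = 0.00681), -3.27 (adjusted p = 0.000763) without these vials and -3.0 (adjusted p = 0.000832) after the GC correction.

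Spry2 (chromosome 14, 105891947 to 105896819) had 19.4, 16.2, 15.8 and 15.1 FPKM in day 0 replicate 1 and 13.3, 11.8, 12.0 and 10.9 FPKM in replicate 2. In day 4 EBs it lay between 4.36 and 5.10 FPKM in replicate 1 and between 5.04 and 5.47 FPKM in replicate 2. The 2 days did not overlap, and the mix 3 and mix 4 vials of day 0 replicate 2 differed from the other vials of that RNA by a log2 of only -0.13. The log2 change between the days was -1.49 (SE 0.23, limma adjusted p = 0.0212), -1.52 (adjusted p = 0.00316) without these vials and -1.64 (adjusted p = 0.00697) after the GC correction. Spry1 (chromosome 3, 37639947 to 37644599) had its higher values at day 4. It lay between 8.14 and 9.19 FPKM in day 0 replicate 1, between 4.98 and 6.62 FPKM in day 0 replicate 2, between 11.1 and 12.5 FPKM in day 4 replicate 1 and between 11.03 and 12.6 FPKM in day 4 replicate 2. All day 4 libraries were above all day 0 libraries. The log2 change of 0.76 (SE 0.27, limma adjusted p = 0.102) did not pass; the day 0 replicates had means of 8.44 and 5.51 FPKM. It passed without the mix 3 and mix 4 vials of day 0 replicate 2 (0.71, adjusted p = 0.0362) and after the GC correction (1.62, adjusted p = 0.0265). In these 2 settings 12545 of 20440 and 10629 of 20553 genes were called.

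Dusp6, the phosphatase specific for ERK, lies on chromosome 10 from 99263231 to 99267489 and was the most abundant of the 10 genes at both days. Its day 0 values were 45.6, 43.0, 42.1 and 43.8 FPKM in replicate 1 and 38.5, 37.4, 50.8 and 48.2 FPKM in replicate 2. Here the mix 3 and mix 4 vials of replicate 2 were the highest of the day, unlike for the other genes. The day 4 values were 19.6, 18.5, 18.02 and 18.5 FPKM in replicate 1 and 23.0, 21.3, 23.2 and 22.8 FPKM in replicate 2. The days did not overlap. The log2 change was -1.09 (SE 0.16, limma adjusted p = 0.0199), -0.99 (adjusted p = 0.00546) without these vials and -1.12 (adjusted p = 0.00697) after the GC correction. When all libraries were scaled to equal sums of FPKM it was -0.83 and missed the threshold (adjusted p = 0.0706).

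Etv4 and Etv5 are ETS transcription factors of the PEA3 subfamily and are induced by FGF signalling in many embryonic tissues. Etv4 (chromosome 11, 101769747 to 101785310) had 21.1, 20.4, 20.7 and 20.03 FPKM in day 0 replicate 1. In replicate 2 the mix 1 and mix 2 vials gave 17.2 and 14.2 FPKM and the mix 3 and mix 4 vials 3.20 and 3.77 FPKM. In day 4 EBs it lay between 0.990 and 1.14 FPKM in replicate 1 and between 0.835 and 1.07 FPKM in replicate 2. Even the lowest day 0 vial was thus above every day 4 library. The log2 change was -3.65 (SE 0.44, limma adjusted p = 0.0132), -4.00 (adjusted p = 0.000720) without the mix 3 and mix 4 vials of day 0 replicate 2 and -2.25 (adjusted p = 0.00180) after the GC correction. For comparison, genes of 55 to 60% GC had a median change of -1.21.

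Etv5 (chromosome 16, 22381313 to 22439570) was at 28.7, 28.1, 28.8 and 27.9 FPKM in day 0 replicate 1 and at 25.7, 23.3, 12.3 and 13.3 FPKM in day 0 replicate 2. At day 4 it lay between 3.06 and 3.54 FPKM in replicate 1 and between 2.71 and 3.19 FPKM in replicate 2, again with no overlap. The log2 change was -2.82 (SE 0.27, limma adjusted p = 0.00883), -3.02 (adjusted p = 0.000670) without the mix 3 and mix 4 vials of day 0 replicate 2 and -2.48 (adjusted p = 0.000703) after the GC correction. Whether fewer cells of the EB expressed these genes or each cell held less of their RNA cannot be told apart in bulk RNA.

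**Figure D2:**
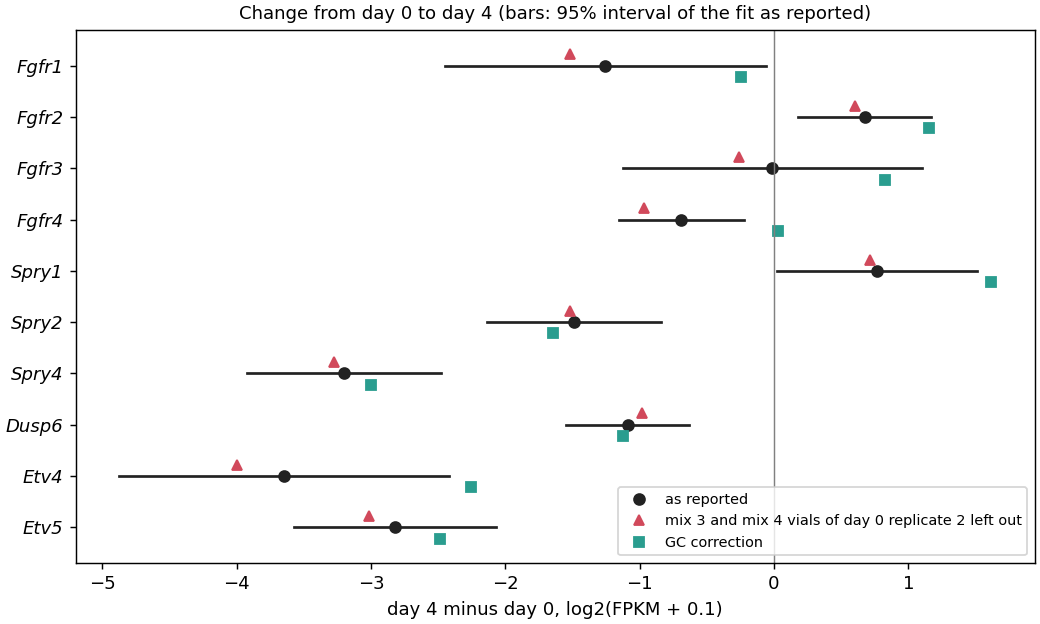
Change of each gene from day 0 to day 4 on the log2(FPKM + 0.1) scale (n = 2 RNA samples per day). Black points and bars are the estimate with its 95% interval, red triangles the estimate without the mix 3 and mix 4 vials of day 0 replicate 2, and green squares that after the GC correction. Spry4, Etv4, Etv5, Spry2 and Dusp6 stayed below 0 in each of them.

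The order of the levels changed between the days. At day 0 Dusp6 (43.7 ± 0.082 FPKM, SD, n = 2) was above Etv5 (23.5 ± 6.86), followed by Etv4 (15.1 ± 7.76), Spry2 (14.3 ± 3.27), Fgfr1 (12.4 ± 6.16), Fgfr2 (7.41 ± 0.923), Spry1 (6.98 ± 2.07) and Spry4 (5.90 ± 1.09). From Etv5 to Spry4 the replicates of neighbouring genes overlapped. Within single libraries Etv5 was above Etv4, Spry2 and Fgfr1 in all 8 of day 0, whereas Etv4 was above Spry2 in 6 of 8, Spry2 above Fgfr1 in 5, Fgfr1 above Fgfr2 in 6, Fgfr2 above Spry1 in 4 and Spry1 above Spry4 in 7. Fgfr3 (0.712 ± 0.347) and Fgfr4 (0.135 ± 0.042) came last. At day 4 Dusp6 (20.6 ± 2.75 FPKM) was followed by Fgfr2 (11.9 ± 0.083) and Spry1 (11.7 ± 0.133), whose libraries overlapped. Spry2 (4.97 ± 0.239) and Fgfr1 (4.85 ± 0.845) overlapped as well. Etv5 (3.17 ± 0.185), Etv4 (1.03 ± 0.090), Fgfr3 (0.669 ± 0.071), Spry4 (0.548 ± 0.021) and Fgfr4 (0.045 ± 0.010) came below them. The libraries of Fgfr3 overlapped with those of its neighbours Etv4 and Spry4.

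The rows of Fgfr1, Fgfr2 and Fgfr3 are RefSeq transcripts that differ in some of their exons. Of the 3 rows of Fgfr1, NM_010206 and NM_001079908 contain the exon of the outermost Ig loop, chr8:25555508-25555774 on the plus strand of mm10, and NM_001079909 lacks it. The first 2 differ in a later exon, of 90 bases in NM_010206 and 84 in NM_001079908. The exon of the loop is a coding exon of 267 bases with 62.9% GC. It is shown because among the rows of Fgfr1 the share of the transcript without it had the widest range over the libraries, with capitals at its 14 CG dinucleotides.
Fgfr1 exon: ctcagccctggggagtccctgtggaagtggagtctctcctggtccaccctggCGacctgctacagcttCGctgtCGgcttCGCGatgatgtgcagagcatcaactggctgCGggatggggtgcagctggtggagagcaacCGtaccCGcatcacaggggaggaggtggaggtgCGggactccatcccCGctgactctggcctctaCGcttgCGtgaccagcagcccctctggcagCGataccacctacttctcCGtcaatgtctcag
The 2 rows of Fgfr2, NM_010207 (IIIc) and NM_201601 (IIIb), use alternative exons for the second part of the third loop, which set the choice of ligand. The IIIc form is typical of mesenchymal cells and the IIIb form of epithelia. NM_010207 also has 2 exons, of 78 and 267 bases, that NM_201601 lacks, so the share of a row is not a measure of the third loop alone.

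The Fgfr1 transcript without the exon, NM_001079909, was listed at 0 in 5 of 8 day 0 libraries. The other 3 were 0.210 FPKM in mix 4 of replicate 1 and 2.00 and 1.43 FPKM in the mix 3 and mix 4 vials of replicate 2. At day 4 it was above 0 in all 8 libraries, between 0.436 and 2.08 FPKM. As a share of the FPKM of Fgfr1 it made up 0.313% in day 0 replicate 1, 24.8% in day 4 replicate 1 and 30.5% in day 4 replicate 2. In day 0 replicate 2 it was 0% in the mix 1 and mix 2 vials and 38.8% in the mix 3 and mix 4 vials. The share therefore differed as much between vials of 1 RNA as between the days. The share of the full-length NM_010206 went from 62.9% and 59.1% in the day 0 replicates to 44.0% and 33.8% in the day 4 replicates. Within day 0 replicate 2 it was 68.6% in the mix 1 and mix 2 vials and 33.9% in the mix 3 and mix 4 vials. In the limma test of shares over 9023 transcripts none passed (0% called, 2612 at an unadjusted p of 0.05 or less). The log2 change of the ratio of NM_001079909 to the other rows was 3.53 (SE 1.47, adjusted p = 0.217). It was 5.50 (adjusted p = 0.0135) without the mix 3 and mix 4 vials of day 0 replicate 2, where 2671 transcripts passed.

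NM_010207, the row of Fgfr2 with the IIIc exon, had the larger share at both days. It made up 85.6% and 86.0% of the FPKM of Fgfr2 before RA (day 0 replicates 1 and 2) and 86.6% and 82.7% after it (day 4). Single libraries lay between 78.5% and 92.6% before and between 74.3% and 90.9% after it. The log2 change of its ratio to NM_201601 was -0.08 (SE 0.30, limma adjusted p = 0.868), a value that was below 1 SE and changed its sign under some settings. The IIIb row was at 0.413 to 1.39 FPKM at day 0 and 1.09 to 3.05 FPKM at day 4.

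Of the 17 rows, 16 were above 0 in at least 1 library and were tested over 28213 transcripts. In this fit 6 of the 16 were called, all lower at day 4, beside 18.9% of all transcripts (8.67% lower, 10.2% higher). They were the single rows of Spry2, Spry4, Dusp6, Etv4 and Etv5, and NM_008010 of Fgfr3. NM_008010 was at 0.383, 0.280, 0 and 0.537 FPKM in day 0 replicate 1, at 0.790, 0.010, 0 and 0 FPKM in replicate 2, and listed at 0 in all 8 libraries of day 4 (log2 change -1.79, SE 0.19, limma adjusted p = 0.0200). NM_008010 passed the filter only through day 0, where it was higher, and both of its day 4 means were 0. The fit used the means of the RNA samples and not the spread over vials, an SD of 0.23 and 0.39 FPKM in the day 0 replicates. Its call is therefore not taken as support for a change. The rows of Fgfr3 share most of their sequence, and how RSEM divides the reads among them varied from vial to vial. The share of NM_001163216, for example, ranged from 0 to 100% between day 0 libraries.

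**Figure D3:**
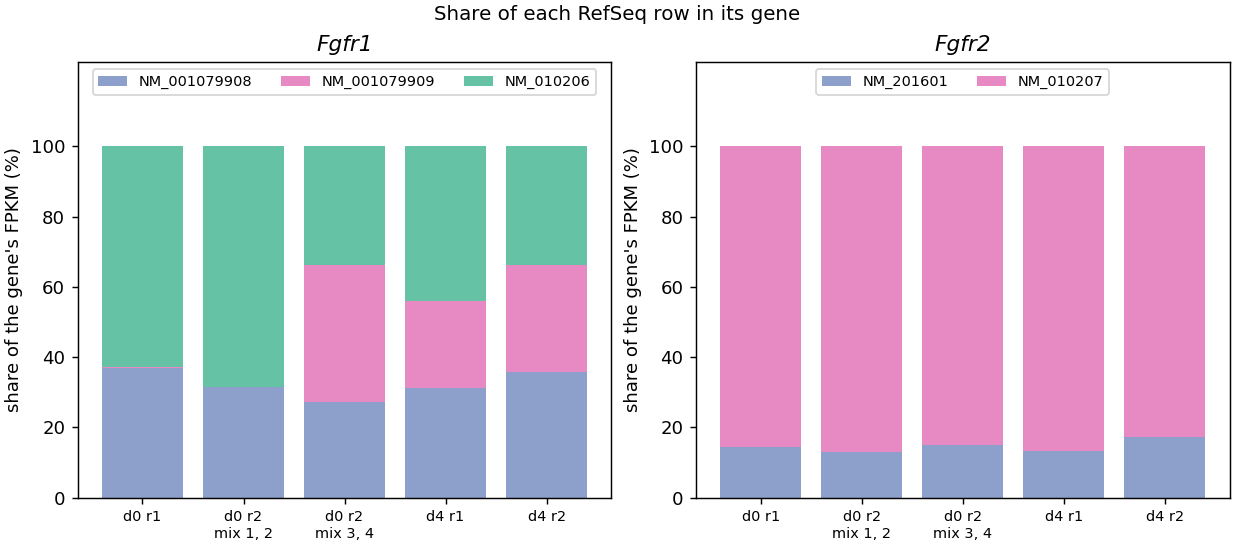
Share of each RefSeq transcript in the FPKM of Fgfr1 (left) and Fgfr2 (right), in percent, for day 0 replicate 1, the 2 kinds of vials of day 0 replicate 2, and the day 4 replicates. NM_001079909 of Fgfr1 is near 0 in the first 2 bars and between 24.8% and 38.8% in the others, while the shares of Fgfr2 are alike in all bars.

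The other genes of the pathway were described with lists that hold FGF genes, co-receptors, the cascade and further feedback genes. Beside their counts stand those of all genes tested: 30.4% were called as reported, 12545 of 20440 without the mix 3 and mix 4 vials of day 0 replicate 2 and 10629 of 20553 after the GC correction. Of 21 FGF genes tested, 9 were higher at day 4 and 7 lower (median log2 change 0.20). They include 4 FGF homologous factors (Fgf11 to Fgf14), which stay inside the cell and do not act on these receptors. Of these 3 were higher and 0 lower, and of the 17 secreted FGFs 6 were higher and 7 lower. After the GC correction Fgf12 was no longer called (0.34, limma adjusted p = 0.223), and Fgf13 was called lower (-1.11, adjusted p = 0.024). Without the mix 3 and mix 4 vials of day 0 replicate 2, 9 of the 21 were higher and 9 lower. After the GC correction 9 were higher and 7 lower, with a median of 0.34. Fgf3, Fgf15 and Fgf8 fell most. Fgf8 is a signal of the primitive streak. Fgf15 went from 33.2 and 29.1 FPKM to 0.079 and 0.107 FPKM (log2 -7.34, limma adjusted p = 0.00468). Fgf3 went from 43.2 and 17.5 FPKM to 0.00475 and 0.0215 FPKM (log2 -7.94, adjusted p = 0.00537), and Fgf8 from 14.1 and 4.77 FPKM to 0.007 FPKM in replicate 1 and 0 in replicate 2 (log2 -6.33, adjusted p = 0.00874). After the GC correction Fgf3 was at -7.13 and Fgf8 at -5.40. Among the FGF genes with a mean of at least 1 FPKM, Fgf11, Fgf9 and Fgf1 rose most, Fgf11 from 0.181 and 0.256 FPKM to 14.3 and 12.6 FPKM (log2 5.42, adjusted p = 0.00468). Fgf9 went from 0.0248 and 0.0365 FPKM to 2.84 and 3.08 FPKM (log2 4.55), and Fgf1 from 0.124 and 0.121 FPKM to 2.09 and 1.90 FPKM (log2 3.23). Fgf20, just below that mean and named after its values were seen, rose by 4.14 (adjusted p = 0.00474).

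Of 24 co-receptors and receptor modulators 9 were higher and 4 lower (median 0.11; 16% and 14.5% of all genes), and 10 higher and 7 lower without these vials. After the GC correction 14 were higher and 4 lower, with a median of 0.94. Il17rd (Sef), itself a feedback inhibitor of FGF receptors, fell from 19.7 and 16.3 FPKM to 2.98 and 2.80 FPKM (log2 -2.59, limma adjusted p = 0.00592). The syndecan Sdc1 fell by 1.90 on the log2 scale (-1.10 after the GC correction). Flrt2 and Flrt3, membrane proteins that bind FGF receptors, rose by 3.82 and 2.20, and the sulfatase Sulf1, which trims heparan sulfate, by 1.74. The glypican Gpc3 had the highest level of this list, and went from 217 and 215 FPKM to 563 and 538 FPKM (log2 1.35, adjusted p = 0.0116).

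Of 27 adaptors and members of the Ras-ERK cascade 3 were higher (Sos2, Gab1 and Rps6ka3) and 2 lower (Ksr1 and Rps6ka1), with a median of -0.13, so that 5 were called beside 30.4% of all genes. The count depended on the vials and the fit. With the replicate number as a block 5 were higher and 8 lower, beside 10583 of all genes called. Without the mix 3 and mix 4 vials of day 0 replicate 2, 7 genes of the cascade were higher and 11 lower. After the GC correction 9 were higher and 7 lower. Rps6ka3 was not called with equal sums (adjusted p = 0.0531).

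The 25 further feedback and target genes had 8 members lower, 1 higher and a median of -1.02, so that 9 of 25 were called beside 30.4% of all genes. The ERK phosphatase genes Dusp4 and Dusp9 fell, Dusp4 from 89.2 and 72.9 FPKM to 4.15 and 4.59 FPKM (log2 -4.18, limma adjusted p = 0.00468) and Dusp9 from 89.6 and 37.1 FPKM to 1.75 and 1.501 FPKM (log2 -5.07, adjusted p = 0.00899). After the GC correction these changes were -3.40 and -3.72. Junb fell by 4.99 (adjusted p = 0.0322; -3.51 after the GC correction), with 14.5 FPKM in day 0 replicate 1 and 2.30 FPKM in replicate 2. Etv1, the remaining PEA3 factor, rose from 1.74 and 2.33 FPKM to 5.13 and 5.45 FPKM (log2 1.35, adjusted p = 0.0284; 0.71 after the GC correction), opposite to Etv4 and Etv5. The Sprouty-related Spred1, with the highest mean of this list over both days, was at 35.9 and 55.9 FPKM before RA and 49.2 and 57.6 FPKM after it (log2 0.25, adjusted p = 0.514). Its change was 0.53 (adjusted p = 0.0155) without the mix 3 and mix 4 vials of day 0 replicate 2 and -0.25 (adjusted p = 0.0366) after the GC correction, so its direction depended on the processing. Without the mix 3 and mix 4 vials of day 0 replicate 2, 16 were lower and 3 higher. With the replicate number as a block 15 were lower and 2 higher. After the GC correction 8 were lower and 5 higher, and the median of this list was -0.25.

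**Figure D4:**
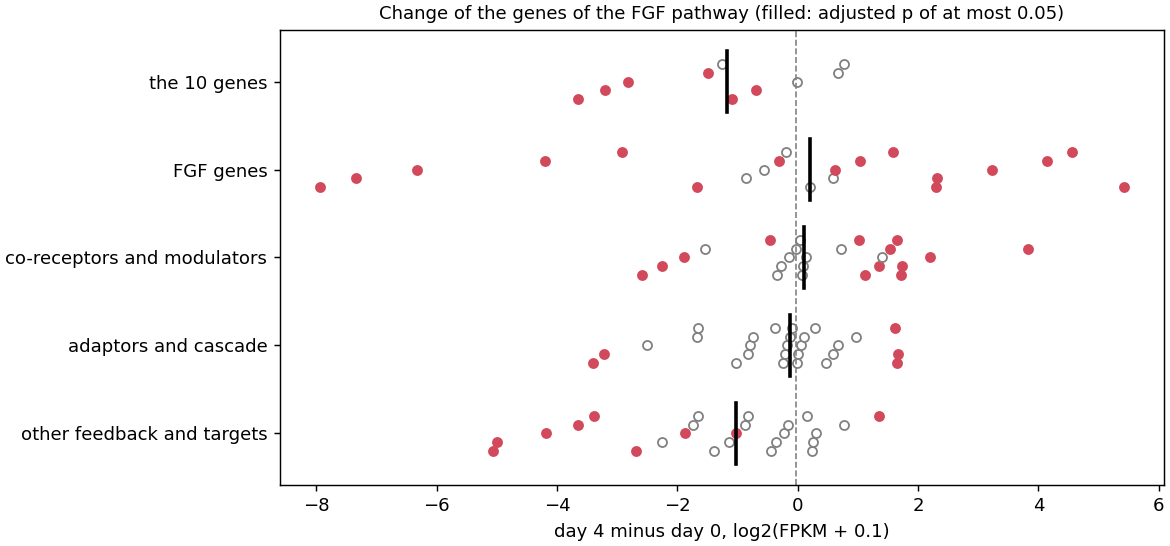
Log2 change from day 0 to day 4 of the 10 genes and of the genes of the 4 lists, on the log2(FPKM + 0.1) scale. Filled points passed an adjusted p of 0.05, black bars are medians and the dashed line is the median of all genes tested. The medians of the 10 genes (-1.17) and of the further feedback and target genes (-1.02) lie below the dashed line, and the other medians lie near it.

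Markers of several cell types changed along with these genes. Beside the counts below, 30.4% of all genes tested were called, 16% higher and 14.5% lower. The most abundant marker of each list is that with the highest mean over both days. The summed level of 10 pluripotency markers went from 207 and 151 FPKM in the day 0 replicates to 13.8 and 9.08 FPKM in the day 4 replicates, and 9 of them were lower. Pou5f1, the most abundant, went from 87.3 and 37.2 FPKM to 1.04 and 0.693 FPKM. Of 7 genes of the primitive streak and mesoderm 6 were lower (sums of 189 and 166 FPKM, then 30.1 and 32.2 FPKM), and the most abundant of them, T, went from 72.7 and 61.3 FPKM to 0.0238 and 0.0142 FPKM. Of 10 extraembryonic endoderm markers 6 were higher and 1 lower (sums of 21.6 and 20.3 FPKM, then 85.0 and 85.1 FPKM), led by Gata6, which went from 6.25 and 6.47 FPKM to 53.2 and 55.7 FPKM. Of 8 neural progenitor markers 1 was higher and 2 lower (sums of 31.7 and 30.1 FPKM, then 26.2 and 27.3 FPKM, most of it Nes), and of 8 neuronal markers 2 were higher and 4 lower (sums of 30.2 and 17.9 FPKM, then 11.2 and 10.6 FPKM, led by Stmn2 over both days). The 8 endothelial and blood markers had 1 higher and 3 lower (sums of 116 and 91.5 FPKM, then 128 and 105 FPKM, led by Hbb-bh1). Of 8 RA response genes 5 were higher and 1 lower (sums of 66.3 and 64.9 FPKM, then 266 and 247 FPKM), and Rarb, a direct RA target, went from 0.190 and 0.200 FPKM to 106 and 108 FPKM. Without the mix 3 and mix 4 vials of day 0 replicate 2 the counts of these lists differed by at most 2 genes per direction, as for the neuron markers, of which 4 in place of 2 were higher. After the GC correction the endothelial and blood markers had 3 higher and 3 lower, with a median log2 change of 0.23 in place of -0.12. Neuron markers then had 3 higher and 4 lower, neural progenitor markers 2 and 3, and RA response genes 6 and 1. Of all genes 12545 of 20440 were called without these vials and 10629 of 20553 after the GC correction. No marker of these lists was at 0 in all libraries. The part of cell composition in the changes of the FGF pathway genes was not tested.

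Fgfr2 and Dusp6 had the highest means over both days among the receptors and the feedback genes, although mean Fgfr1 was above mean Fgfr2 at day 0. The genes most like them across the 16 libraries were named by Pearson's r of log2(FPKM + 0.1), over genes of at least 1 FPKM. The libraries are 4 RNA samples in 4 vials each, so r rests mostly on the difference between the days. For Fgfr2 they were Pgf (r = 0.995), Col8a2 (0.994) and Vwa8 (0.994). For Dusp6 they were Akap8 (0.996), Fbxl14 (0.993) and Jade1 (0.993). These 3 shared the higher level of Dusp6 in the mix 3 and mix 4 vials of day 0 replicate 2: Akap8 had a mean of 55.6 FPKM there and 49.2 FPKM in the mix 1 and mix 2 vials.

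**Figure D5:**
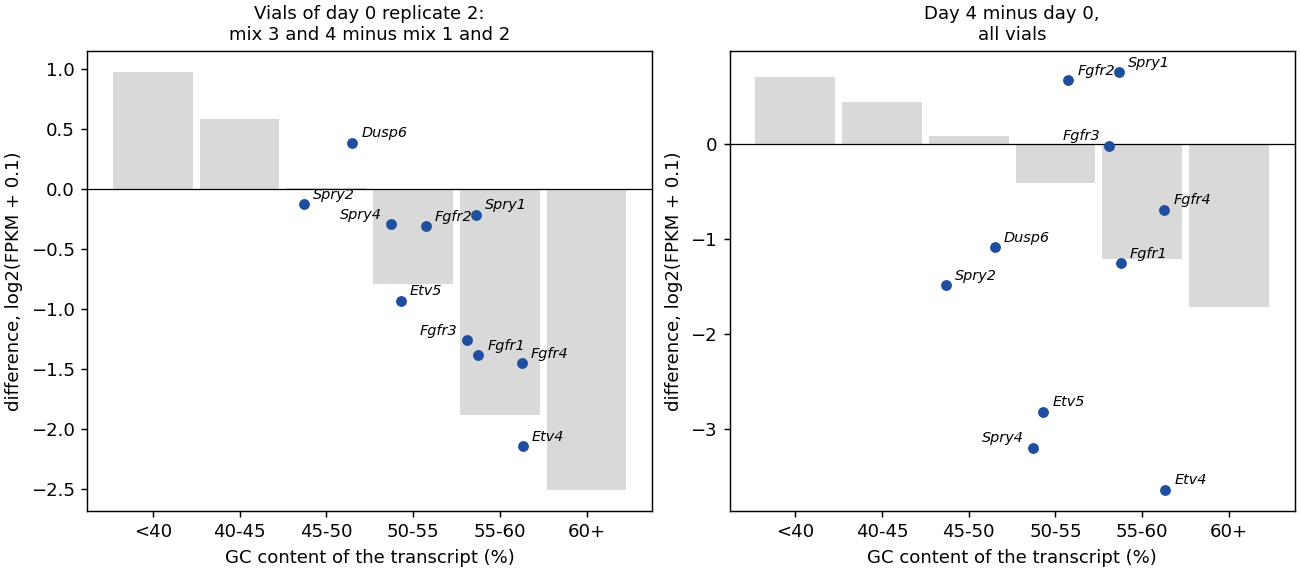
Left, log2 difference between the mix 3 and 4 vials and the mix 1 and 2 vials of day 0 replicate 2, against the GC content of the transcript; right, log2 change from day 0 to day 4. Grey bars are medians of all genes of at least 1 FPKM in bins of GC content, and blue points are the 10 genes at their GC content. Both sets of bars fall with GC content, and Spry4, Etv5, Etv4, Spry2 and Dusp6 lie below the bars of the right panel.

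Promoters were compared because 5 of the 6 feedback genes were lower at day 4, and ETS factors, such as Etv4 and Etv5, bind the core GGAA. RefSeq windows of GRCm38.p6 were available for 7 of the 10 genes (Fgfr2, Fgfr3, Fgfr4, Spry1, Spry2, Dusp6 and Etv5; Spry4 is not considered), and cover 250 bases before to 50 bases after a start. A pair of GGAA cores (or TTCC, on the other strand) at most 30 bases apart was found in 5 of the 7 genes (Fgfr2, Fgfr3, Spry2, Dusp6 and Etv5) and in 60.8% of all genes with a window. The longer ETS motif CCGGAAGT was in 0 of the 7 and in 4.31% of all genes, and the cyclic AMP element TGACGTCA in 0 of the 7 and in 2.03%. Direct repeats of AGGTCA, bound by RA receptors, were in 0 of the 7 with 5 bases between them (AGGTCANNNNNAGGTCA) or 2 (AGGTCANNAGGTCA), and in 0.0111% and 0.00740% of all genes. All motifs were searched on both strands and as exact letters only. The exact direct repeats occur in just 3 and 2 of 27025 genes. Their absence from the 7 genes therefore cannot tell these genes from others, and inexact copies were not searched. In the 250 bases before the start Dusp6 had 6 cores, Spry2 had 3 and Spry1 had 1, beside a median of 3 over 32851 windows. Etv5 had 0 at its outer start and 4 at its inner start. Fgfr3, which was not called, had 1 and 5 at its 2 starts, and Fgfr4, called lower, and Fgfr2, not called, had 2 each. Whether the number of cores is related to the change was not tested. The windows of Dusp6 (chr10:99262981-99263230, plus strand), Spry2 (chr14:105896820-105897069, minus strand) and Spry1 (chr3:37639697-37639946, plus strand) are shown as examples, 2 of genes that fell and 1 of a gene that did not. Capitals mark the GGAA and TTCC cores.
Dusp6: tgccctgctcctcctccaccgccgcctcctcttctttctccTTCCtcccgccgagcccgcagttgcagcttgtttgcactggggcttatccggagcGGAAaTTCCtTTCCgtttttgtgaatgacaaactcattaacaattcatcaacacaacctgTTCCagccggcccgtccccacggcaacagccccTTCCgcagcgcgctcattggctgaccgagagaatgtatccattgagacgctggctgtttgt
Spry2: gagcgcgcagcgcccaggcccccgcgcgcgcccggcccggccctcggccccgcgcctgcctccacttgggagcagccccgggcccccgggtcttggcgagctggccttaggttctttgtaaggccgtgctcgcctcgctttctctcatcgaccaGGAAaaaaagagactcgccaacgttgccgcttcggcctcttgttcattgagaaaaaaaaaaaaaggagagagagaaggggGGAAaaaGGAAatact
Spry1: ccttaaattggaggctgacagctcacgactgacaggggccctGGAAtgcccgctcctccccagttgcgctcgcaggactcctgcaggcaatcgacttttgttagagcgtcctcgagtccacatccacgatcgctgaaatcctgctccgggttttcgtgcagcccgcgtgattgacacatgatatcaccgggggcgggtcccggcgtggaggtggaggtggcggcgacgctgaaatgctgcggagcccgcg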

How the data were processed

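The expression of the 10 genes was taken from 16 libraries (4 RNA samples of EBs in 4 vials each). The authors mapped the stranded paired-end reads to RefSeq (mm10) and spike-in transcripts with Bowtie2 2.1.0, estimated abundance with RSEM 1.2.18 and deposited 1 table of FPKM per isoform, scaled with a TMM factor per library. All columns were assigned by title (0 without a sample). The FPKM of all rows, those of the spike-ins included, summed to between 411090 and 622888 per library. The table holds no counts, so the number of reads behind each value is unknown here. Of the rows 98.6% had a gene symbol and 97.4% a GC content. The spike-ins and 1700047L14Rik were left out of the further steps.

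FPKM were summed per gene and averaged over the 4 vials of each RNA sample. Day 4 was compared with day 0 (2 against 2) with limma 3.58.1 in R 4.3.3 (lmFit, eBayes with a trend) on log2(FPKM + 0.1), for genes, for rows, and without trend for the log2 ratio of a row to the other rows of its gene where the gene mean was at least 1 FPKM. The threshold was a Benjamini-Hochberg adjusted p of 0.05 over all features.

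The day and the mix of each library were taken from the labels, and its RNA sample from the sample table of the study. The study repeated its procedure to obtain the replicates, but its sample table does not link the numbers of day 0 to those of day 4, so the samples were not paired in the reported fit. The GC correction divided the FPKM of each library by its median deviation in 20 bins of GC content over 13893 rows, which can also remove biological differences linked to GC.

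The members and the gene lists were chosen with earlier results of these data known. So were 17 of the 19 alternatives, which were set before the fits. The other 2 were added after the fits had been seen. All members and rows are named. Of the lists, the 3 most changed genes per direction that passed with a mean of at least 1 FPKM and the most abundant gene are named, and of the marker lists the most abundant; the most abundant gene of 1 list is not reported here. The other alternatives were the replicate number as a block, other offsets, a filter, single vials, other averaging, equal sums, another variance model and each replicate left out. Fgf6 was at 0 in all libraries, and Anos1 and Spry3 were not used here. Python 3.11.15, numpy 2.4.6, pandas 2.3.3 and matplotlib 3.10.9 were used.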

Additional observations from a re-analysis of the deposited data

Results flagged for a closer look

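Over the 10 genes and 2 days, 20 groups of 8 libraries were examined for a library far from the rest. Chance flags about 1 in 20 such groups if the 8 values are independent, which vials of 2 RNA samples are not. In 1 group the highest value stood apart: Fgfr3 at day 4 was at 0.901 FPKM in mix 2 of replicate 1, with the next library at 0.724 FPKM, a gap of 0.540 of the whole range.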

How the results depend on the processing

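Beside the reported fit, 19 settings were run. Of these 2 (the GC correction with the replicate block or without the mix 3 and mix 4 vials of day 0 replicate 2) were added after the fits had been seen. Spry4, Etv5, Etv4, Spry2 and Dusp6 were lower at day 4 in all of them, with log2 changes of -3.42 to -2.15, -3.12 to -2.48, -4.24 to -2.23, -1.72 to -1.21 and -1.22 to -0.83, and passed the threshold in 16, 15, 15, 15 and 13. Fgfr2 (0.51 to 1.37) and Spry1 (0.46 to 2.11) were higher in all and passed in 11 and 7. Fgfr1 was lower in all (-1.78 to -0.13) and passed in 5. Of the 18 settings in which Fgfr4 and Fgfr3 were tested they passed in 5 and 3.

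Samples of the 2 days share replicate numbers. The replicates are repeats of the procedure, which makes a pairing by run plausible, but that a number marks the same run on both days is not written out. The differences between the replicates of day 0 and of day 4 correlated with r = 0.753 over 11605 genes (0.589 with mix 1 and 2 vials alone), a hint from the data and not from the design. With the replicate number as a block Fgfr1, Fgfr2 and Spry1 were called beside the 6 genes reported, and 10583 of all genes were called.

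Genes called numbered 6255 as reported, 4156 with a mean of at least 1 FPKM, 10583 with the replicate block, 12545 without the mix 3 and mix 4 vials of day 0 replicate 2, 12310, 9622, 454 and 1119 with the vials of mix 1, 2, 3 or 4 alone, and 10629 after the GC correction (11653 combined with the block, 13191 combined with leaving out those vials). Leaving out 1 replicate gave 0 to 9799 genes. The 0 came without day 4 replicate 1 or day 4 replicate 2, where 4869 and 4579 genes had an unadjusted p of 0.05 or less in limma. The lone sample of a day is assumed there to vary like the other day. Of the 10 genes, 6 were called as reported, 0 with mix 3 vials alone, 1 (Spry4) with mix 4 vials alone, 9 with the block (2 higher, 7 lower) and 0 to 8 without 1 replicate. Equal sums, which moved the median of genes of at least 1 FPKM from -0.15 to 0.12, gave 7 (Fgfr2 and Spry1 higher, Dusp6 not called).

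Transcripts called numbered 5321 as reported, 10050 with the block, 14566 without those vials, 13531, 8956, 0 and 0 with mix 1, 2, 3 or 4 alone (4324 and 5315 at an unadjusted p of 0.05 or less with mixes 3 and 4), 10141 after the GC correction (10540 combined with the block, 14862 combined with leaving out those vials) and 0 to 8550 without 1 replicate (0 without day 0 replicate 1, day 4 replicate 1 or day 4 replicate 2, with 11409, 5414 and 5007 at an unadjusted p of 0.05 or less). Of the rows of the 10 genes, 6 were called as reported, 12 without those vials, 11 with mix 1 alone, 0 with mix 3 or mix 4 alone, 10 after the GC correction (10 combined with the block, 13 combined with leaving out those vials) and 0 to 7 without 1 replicate. Of the shares 0 were called as reported, 668 with a pseudocount of 1, 2671 without those vials, 1547 with mix 1 alone, 2569 with the GC correction combined with leaving out those vials and 0 to 1760 without 1 replicate. Of the shares of the receptors 2 were called without those vials, 2 with mix 1 alone, 2 with the GC correction combined with leaving out those vials and 0 to 1 without 1 replicate.

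Signs changed as follows, and the cause was not tested. Fgfr3 (-0.01) was at 0.0528 with averaged log2 values, 0.43 and 0.29 with mix 3 or mix 4 alone, 0.26 with equal sums, 0.83 after the GC correction, 0.83 after the GC correction combined with the block, 0.85 after the GC correction combined with leaving out those vials, and between -0.46 and 0.44 without 1 replicate. Fgfr4 and its row were at 0.0396 with mix 4 alone and at 0.0293 after the GC correction, also combined with the block. NM_001079908 was at 0.11 after the GC correction combined with leaving out those vials, NM_001163217 at -0.15 with mix 2 alone, NM_001163216 at -1.25 with mix 3 alone and between -0.20 and 0.99 without 1 replicate, and NM_001205270 at 0.32 with mix 1 alone. The share of NM_001079908 (0.02) was at -0.0011 with a pseudocount of 0.01, -0.0145 without those vials, -0.23 with mix 1 alone, -0.0121 with mix 4 alone and between -0.18 and 0.22 without 1 replicate. The share of NM_201601 was at -0.13 with a pseudocount of 1, -0.46 with mix 4 alone, -0.39 after the GC correction (also combined with the block), -0.56 after the GC correction combined with leaving out those vials and between -0.13 and 0.29 without 1 replicate, and that of NM_010207 mirrored it, with 0.13, 0.46, 0.39, 0.39 and 0.56, and -0.29 to 0.13 without 1 replicate.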
